A study of Sus scrofa with 10 samples.

Results

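The damage-response targets and cell cycle inhibitors BAX, ZMAT3, CDKN1A, PHLDA3, CDKN1B and GADD45B, were followed in sorted porcine fetal fibroblasts. These 6 genes were chosen by symbol, with their values in the compared fractions already known, out of 6765 genes named on the array. Every probe set annotated to 1 of these symbols alone was taken, 9 of 24123 in all: CDKN1B had 3, GADD45B had 2 and the other genes had 1 each. The samples were 5 fractions positive and 5 negative for SSEA-1, which is the Lewis X carbohydrate found on the surface of several embryonic and stem cell types.

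All 10 samples came from fibroblasts of Danish Landrace/Yorkshire x Duroc embryos at fetal day 24, grown from fetal tissue without the head in DMEM with 10% FCS on dishes coated with 0.1% gelatin. The positive and negative fractions were parted on magnetic beads by an SSEA-1 antibody, and neither was treated or genetically altered according to the labels. The series text calls the replicates biological, but the labels do not say whether they came from separate cultures or embryos, so the p-values below measure the spread between these samples. RNA of each fraction was read on 1 Affymetrix porcine array as log2 signals, and the number of arrays limits the precision.

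Cells answer DNA damage and other stress by switching on genes for cell cycle arrest, DNA repair and cell death. BAX opens the outer mitochondrial membrane in apoptosis, CDKN1A (p21) and CDKN1B (p27) bind and inhibit cyclin-dependent kinases, ZMAT3 is a zinc finger RNA-binding protein, and PHLDA3 restrains AKT at the membrane. GADD45B is a stress sensor that binds stress kinase pathways and is also induced by cytokines. CDKN1B is governed largely by protein turnover and by FOXO factors, so it stands in the group as a CDK inhibitor and not as a damage-response target.

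The labelled cell type was checked first. Most fibroblast markers were bright, while COL3A1 was dim at 0.75 in the positive and 0.68 in the negative fraction. The mean log2 level over the 9 measured genes was 7.03 to 7.22 on the positive and 6.95 to 7.16 on the negative arrays. Of these 9 genes 1 passed in limma: the collagen gene COL1A2 rose by 1.19 ± 0.13 (SE, adjusted p = 0.000434) without overlap, a difference above that of BAX, and THY1 read 0.34 higher without overlap and without passing (adjusted p = 0.0564). The part of these differences in the members' values was not tested. The endothelial list lay at 0.25 to 0.41 and 0.28 to 0.36, and the pluripotent or germ list at 0.37 to 0.46 and 0.35 to 0.43, around the background level of 0.352. The background level is the value that 95% of the readings of 23 controls without a target in the sample stay under. The endothelial markers CDH5 and TEK, the blood markers PTPRC and SPI1 and the germ cell markers DPPA5 and DDX4 were below it on every array, while PECAM1, VWF, HBB and KIT of the same lists were above it on all 10. The muscle genes DES (7.20 against 6.92) and ACTC1 (5.86 against 5.70) and the keratin KRT8 (5.42 against 5.47) were bright in both fractions and overlapped between them. In the epithelial list 4 of 6 genes read higher and 2 lower, none past the threshold in limma. EPCAM, CDH1 and KRT19 read 0.25, 0.18 and 0.40 higher at dim signals (adjusted p = 0.105, 0.173 and 0.166). Before adjustment 3 of the 6 had p under 0.05, as did 23.8% of all genes. With the replicate number as a block KRT19 rose (adjusted p = 0.0272), and with the block as a random effect it did not pass (adjusted p = 0.0742). The means of the blood (0.99 to 1.24 against 1.01 to 1.21), epithelial (1.35 to 1.83 against 1.22 to 1.88), muscle (2.74 to 2.95 against 2.44 to 2.95) and neural lists (1.62 to 2.12 against 1.83 to 2.15) overlapped between positive and negative arrays. A technical difference ran along with the sort: the poly-A spike-in controls, measured relative to the hybridisation controls, were 0.82 higher on the log2 scale on the positive arrays, at -3.45 to -2.66 against -4.32 to -3.80. With this poly-A level as a covariate COL1A2 read 1.01 ± 0.25 and THY1 0.01 ± 0.16 (SE). Neither passed in limma then (adjusted p = 0.149 and 0.99).

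BAX, ZMAT3, CDKN1A and PHLDA3 read higher in the SSEA-1 positive fraction without overlap, whereas CDKN1B and GADD45B read lower on average with overlapping fractions. In such bulk RNA a smaller share of cells expressing a gene and less RNA per cell cannot be told apart. These differences took part in choosing the genes, so the values of the 6 genes and their counts past a threshold are a description and support nothing. In limma 4 of the 6 genes, taken at their brightest probe sets, were past an adjusted p of 0.05, all 4 of them higher; over all genes 7.39% were past it, 3.21% higher and 4.18% lower. The balance over all genes turned with the scaling: 43.4% of the calls were higher as deposited, 55.5% with quantile normalization repeated and 54.9% with cyclic loess, while the 4 genes were past the threshold and higher in each.

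BAX had the largest difference of the 6. Its log2 signals in positive replicates 1 to 5 were 4.39, 4.47, 4.54, 4.87 and 4.68, and in negative replicates 1 to 5 they were 3.38, 3.62, 3.53, 3.27 and 3.89. The lowest positive array lay 0.50 above the highest negative array, and the widest step was in replicate 4, which held both the highest positive and the lowest negative value. The means were 4.59 ± 0.19 and 3.54 ± 0.24 (SD, n = 5 each), a difference of 1.05 ± 0.12 (SE) or 2.08-fold. In order of size, 9 of the 6765 genes differed more, so that BAX stood at place 10, and from the top it stood at place 5.

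CDKN1A, a main effector of damage-induced cell cycle arrest, read 7.90, 7.91, 7.60, 7.51 and 7.91 in positive replicates 1 to 5. The negative values were 7.27, 7.32, 7.10, 6.84 and 6.90. The fractions did not overlap, and positive replicates 3 and 4 were the low arrays of the positive fraction. The difference was 0.68 ± 0.12 (SE), or 1.60-fold, with pair differences of 0.50 to 1.01 and the widest in replicate 5.

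ZMAT3 read 6.48, 6.47, 6.25, 6.09 and 6.70 in positive replicates 1 to 5 and 5.69, 5.93, 5.54, 5.47 and 5.81 in the negative ones. Replicate 4 was the lowest in both fractions, and the fractions did not overlap. The means were 6.40 ± 0.23 and 5.69 ± 0.19 (SD, n = 5 each), a difference of 0.71 ± 0.12 (SE) or 1.63-fold. Its pair differences lay between 0.54 and 0.88, and taking the replicate number as a block narrowed the SE to 0.07.

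PHLDA3 differed less, with positive values of 5.72, 5.40, 5.31, 5.32 and 5.55 and negative values of 5.10, 5.17, 4.89, 5.03 and 4.94 in replicates 1 to 5. The fractions stood apart by 0.14, a gap smaller than the within-fraction SDs of 0.17 and 0.11. The difference was 0.43 ± 0.09 (SE), or 1.35-fold, and was widest in replicates 1 and 5, at 0.62 and 0.61, against 0.22 in replicate 2. PHLDA3 was no longer past the threshold without both arrays of replicate 1 (0.39), replicate 3 (0.44) or replicate 5 (0.39), which left 3 of the 6 genes past it. Non-overlap as such was found in 4 of the 6 genes and in 8.53% of all genes, with 3.96% above in the positive fraction.

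**Figure D1:**
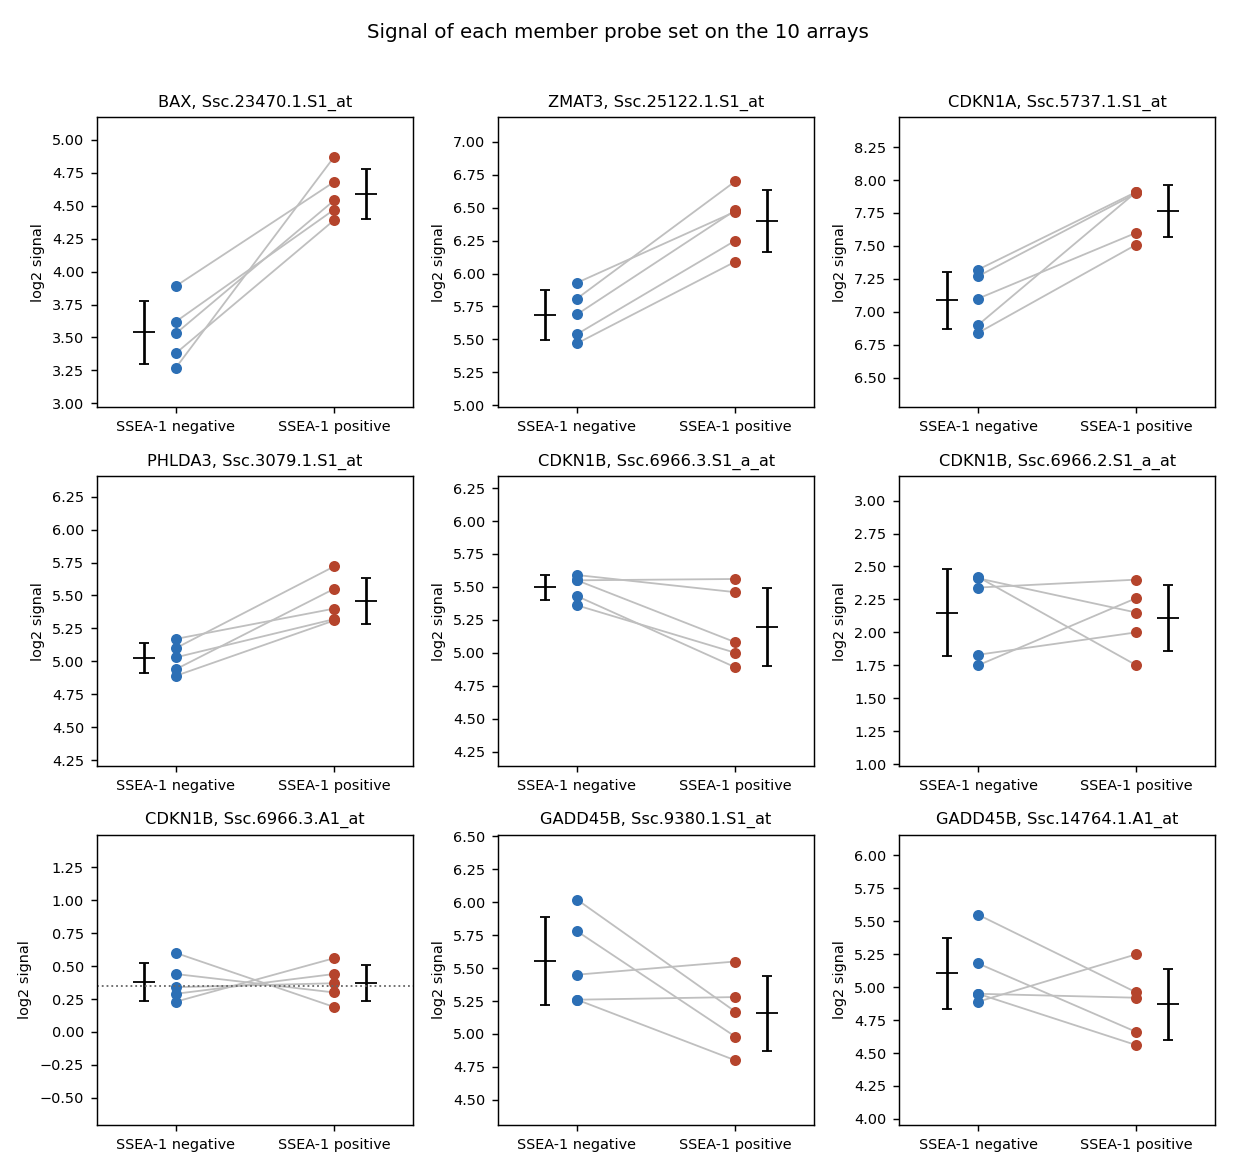
Log2 signal (vertical axis, equal span in each panel) of the 9 member probe sets on 5 SSEA-1 negative (blue) and 5 SSEA-1 positive (red) arrays; grey lines join arrays with the same replicate number, and black marks give the mean and SD. BAX, ZMAT3, CDKN1A and PHLDA3 have no overlap between the fractions, CDKN1B and GADD45B overlap, and the third CDKN1B probe set lies at the background level (dotted line).

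CDKN1B, the other CDK inhibitor of the group, went the other way from CDKN1A on its brightest probe set. There it read 5.08, 5.46, 5.56, 4.89 and 5.00 in positive replicates 1 to 5 and 5.55, 5.59, 5.55, 5.43 and 5.36 in the negative ones. Positive replicates 2 and 3 lay among the negative values, and the other 3 positive arrays lay below all of them. The positive fraction was the more scattered, at 5.20 ± 0.30 against 5.50 ± 0.10 (SD, n = 5 each), and the difference of -0.30 ± 0.12 (SE) was negative in 4 of 5 pairs.

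The other CDKN1B probe sets did not show this. The second, at 2.11 ± 0.25 against 2.15 ± 0.33 (SD, n = 5 each), differed by -0.04 ± 0.15 (SE) and had the same sign as the first in 1 of 5 pairs. The third was above background on 5 of 10 arrays and differed by -0.01 ± 0.09 (SE). When the probe sets of a gene were averaged, CDKN1B read -0.11 ± 0.09 (SE), so without a covariate its lower reading rests on 1 of its 3 probe sets.

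GADD45B was measured on 2 probe sets that gave nearly the same profile, with a root mean square difference of 0.13 between them over 10 arrays after each was centred on its mean. The brighter read 4.98, 5.17, 4.80, 5.55 and 5.28 in positive replicates 1 to 5 and 5.78, 6.02, 5.26, 5.45 and 5.26 in the negative ones. Its pair differences were -0.80, -0.85, -0.46, 0.10 and 0.02, so that it was lower in replicates 1 to 3 and nearly level in replicates 4 and 5. The second probe set had pair differences of -0.52, -0.59, -0.39, 0.36 and -0.03. On average the brighter differed by -0.40 ± 0.16 (SE) and the second by -0.23 ± 0.15 (SE), and neither was past the threshold.

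The other GADD45 genes, which code for related small stress proteins, differed among themselves. GADD45G read 3.55, 3.76, 2.55, 3.78 and 3.93 in positive and 4.42, 4.80, 3.99, 3.94 and 4.16 in negative replicates 1 to 5, with every positive array below every negative one. Its pair differences of -0.87, -1.05, -1.44, -0.16 and -0.23 were also large in replicates 1 to 3 and small in replicates 4 and 5. GADD45G differed by -0.75 ± 0.24 (SE) without passing in limma (adjusted p = 0.0818), and with the replicate block it fell (adjusted p = 0.0154). With the poly-A covariate it read 0.34 ± 0.28 (SE, adjusted p = 0.689 in limma), so its lower reading was not seen in that fit. GADD45B read 0.02 ± 0.28 (SE) there on its brighter probe set. GADD45A, a damage-induced gene of the family, lay at 7.81 ± 0.10 against 7.83 ± 0.14 (SD, n = 5 each) and differed by -0.02 ± 0.08 (SE; adjusted p = 0.918 in limma).

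Over the 10 arrays, genes with the nearest profile were searched among 5693 genes above background, by the root mean square difference of centred log2 signals. This likeness includes the difference between the fractions and is a description. Nearest to BAX was DDB1 at 0.137, followed by SRRM2 at 0.180 and POLR1E at 0.222, against a median of 0.59 over all genes searched. DDB1, an adaptor of the CUL4 ubiquitin ligase and a damage-binding protein, read 4.81, 5.05, 4.91, 5.13 and 5.00 in positive and 4.03, 4.30, 4.06, 3.85 and 4.34 in negative replicates 1 to 5. Like BAX it had its widest pair difference, 1.28, in replicate 4 and its narrowest, 0.66, in replicate 5.

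CDKN1A was itself the nearest gene to ZMAT3, at 0.140, ahead of KIAA1671 at 0.145 and the kinase AKT2 at 0.165. Nearest to CDKN1A were KIAA1671 at 0.098, CTDSPL at 0.117 and FOXO1, a transcription factor restrained by AKT, at 0.118. The profile of PHLDA3 was nearest to those of ATP6V0C, SCAP and NR2F6, at 0.098 to 0.101. For CDKN1B they were INIP, RAB3IP and MGLL, at 0.108 to 0.118, and for GADD45B NFIL3, USF2 and RASSF1, at 0.181 to 0.188. The nearest gene to GADD45B thus lay farther off in log2 units than the nearest gene to each other member. The medians over all genes searched differed too, at 0.43 for ZMAT3, 0.42 for CDKN1A, 0.30 for PHLDA3, 0.29 for CDKN1B and 0.38 for GADD45B. Distances of different members are therefore not on the same scale.

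**Figure D2:**
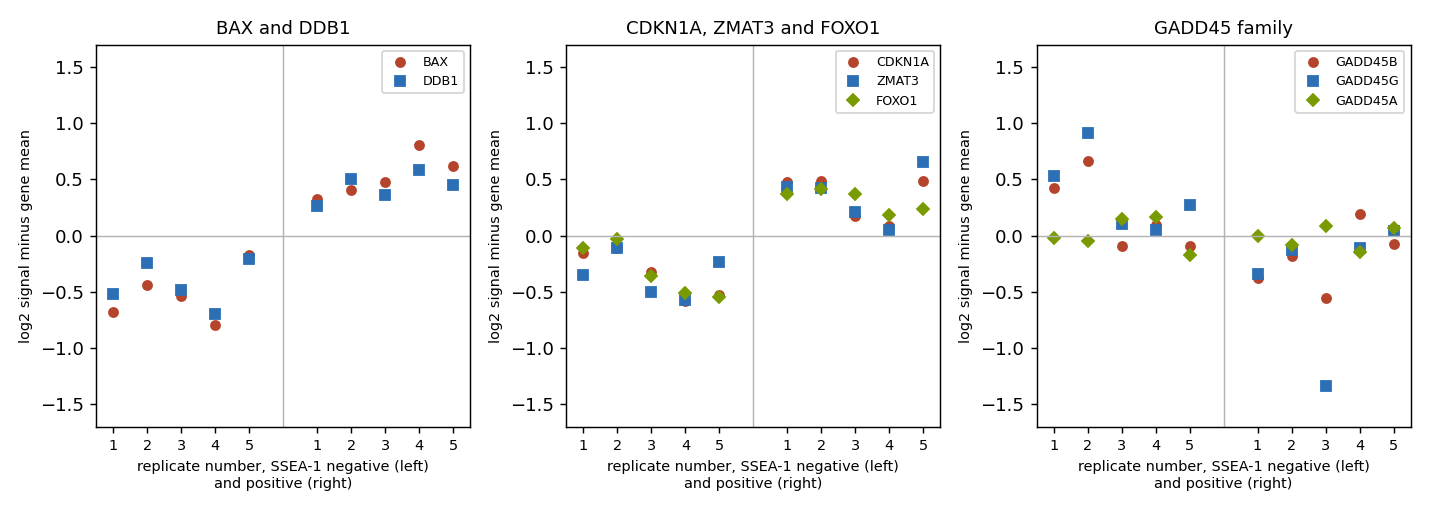
Log2 signal minus the gene's mean over 10 arrays (vertical axis) by replicate number, with SSEA-1 negative arrays on the left and positive arrays on the right of each panel. DDB1 follows BAX, FOXO1 and ZMAT3 follow CDKN1A, and GADD45G is lower than its mean in positive replicate 3, where it read 2.55.

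The members' differences changed unequally when the poly-A level of the arrays was added to the fit. The pair differences in that level were 0.69, 0.89, 1.25, 0.42 and 0.87 in replicates 1 to 5. With it as a covariate BAX read 1.44 ± 0.19, ZMAT3 1.03 ± 0.20, CDKN1A 0.81 ± 0.22 and PHLDA3 0.51 ± 0.18 (SE), each at least as large as without it. CDKN1B read -0.63 ± 0.21 on its brightest probe set, over 1.5 times the plain difference. GADD45B read 0.02 ± 0.28 and, on its second probe set, 0.24 ± 0.23 (SE), so its lower reading was not seen in this fit. Since the poly-A levels of the fractions did not overlap, these values are an extrapolation by the model.

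Of the 6 genes BAX alone was past the threshold with the covariate, where 0.0887% of all genes were. Adding the replicate block left none of the 6 past it in limma, against 0.0148% of all genes, while 4 of the 6 and 11.4% of all genes had p under 0.05 before adjustment. The differences were then 1.64 ± 0.30 for BAX, 0.66 ± 0.24 for ZMAT3, 0.81 ± 0.27 for CDKN1A, 0.40 ± 0.26 for PHLDA3 and -0.88 ± 0.22 for CDKN1B (SE). The replicate block alone left the same 4 genes past the threshold, where 14.3% of all genes were.

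**Figure D3:**
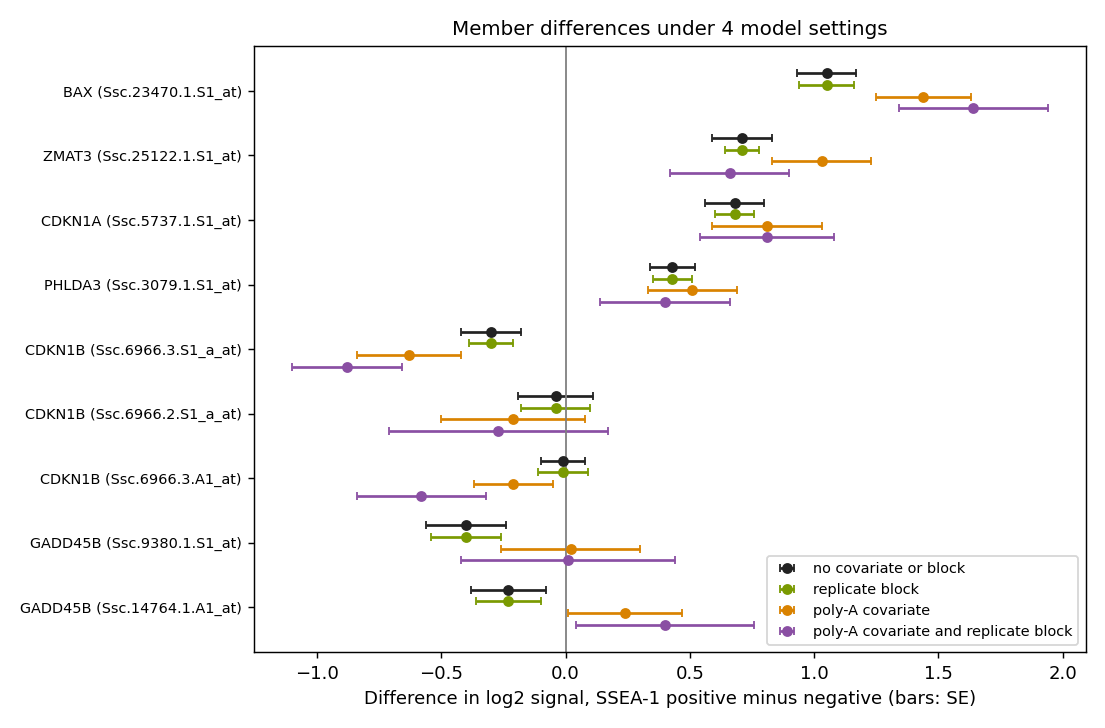
Difference in log2 signal, SSEA-1 positive minus negative (horizontal axis; bars are SEs), of the 9 member probe sets without covariate or block, with the replicate number as a block, with the poly-A level as a covariate, and with both. BAX moves from 1.05 to 1.64 and the brightest CDKN1B probe set from -0.30 to -0.88, while GADD45B goes from -0.40 to 0.01.

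The rest of the pathway was read from 7 lists of genes that left out the 6 members, 164 genes of which 88 were measured. In limma 7 of the 88 rose, 2 fell and 79 did not pass, which is 10.2% past the threshold against 7.39% of all genes, and the median difference was -0.02 against -0.01 over all genes. These lists were written with results of the same arrays known.

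Of 17 other damage-response targets, 1 rose, 1 fell and 15 did not pass, with a median of 0.03. PERP, a desmosome protein with a role in apoptosis, rose by 0.49 ± 0.12 (SE, adjusted p = 0.0364 in limma). DDB2, which recognises ultraviolet damage together with DDB1, fell by 0.46 ± 0.10 (SE, adjusted p = 0.0154), at dim signals of 1.33 ± 0.20 against 1.78 ± 0.11 (SD, n = 5 each), and its dimmer probe sets both read -0.07. The antiproliferative gene BTG2 read 0.56 higher without passing (adjusted p = 0.143), with the replicate block it rose (adjusted p = 0.00571), and with the block as a random effect it did not pass (adjusted p = 0.0545). The ribosomal protein paralogue RPS27L read 0.15 higher (adjusted p = 0.31). The call of PERP ended without positive replicate 1, 3 or 5 and without negative replicate 2, 3 or 4, and that of DDB2 was lost when both arrays of replicate 1, 3 or 5 were left out. Both calls ended with the poly-A covariate, at 0.40 ± 0.24 for PERP and -0.38 ± 0.19 for DDB2 (SE). Covariate and block together gave 0.05 for PERP and -0.08 for DDB2.

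Among regulators of the damage response 7 genes were measured, of which 1 rose and 6 did not pass, at a median of -0.10. USP10, a deubiquitinase, rose by 0.30 ± 0.07 (SE, adjusted p = 0.0207 in limma) with 6.15 ± 0.09 against 5.85 ± 0.07 (SD, n = 5 each) and no overlap. Its dimmer probe set, above background on all 10 arrays, read 0.13 ± 0.08 (SE, adjusted p = 0.379). When the probe sets of a gene were averaged, USP10 did not pass. USP7, RCHY1 and CHEK2 read 0.16, -0.24 and -0.32 without passing, and RCHY1, lower in 5 of 5 pairs, passed with the replicate block as a random effect alone (adjusted p = 0.0384, against 0.0534 with it fixed). The call of USP10 was lost in the same 3 leave-outs as that of DDB2, and with the poly-A covariate it read 0.13 ± 0.12 (SE).

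Around BAX, 12 genes of the BCL2 family and the mitochondrial death machinery were measured, and 1 rose while 11 did not pass, with a median of 0.04. The call was BCL2L1, an inhibitor of BAX, which rose by 0.38 ± 0.10 (SE, adjusted p = 0.0438 in limma) from 0.41 to 0.79, close to background. It lost that call in 8 of 10 leave-outs of a single array, keeping it only when positive replicate 4 or negative replicate 1 was left out, and its second probe set read 0.18 without passing. With the poly-A covariate and the replicate block it read -0.12 ± 0.31 (SE). BAK1, the partner of BAX in pore formation, lay above background on 2 of 10 arrays, CYCS (cytochrome c) read -0.27 (adjusted p = 0.0976), and VDAC2, a channel of the outer mitochondrial membrane, read 0.15 (adjusted p = 0.34). The dimmer VDAC2 probe sets read -0.09, 0.12, 0.11 and 0.14 without passing, the first of them nearly as bright (7.03 against 7.12).

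Of 14 further CDK inhibitors, cyclins, CDKs and pocket proteins 1 rose and 13 did not pass, and 12 of the 14 read lower, as did 52.4% of all genes, with a median of -0.15. CCND2, a D-type cyclin that drives CDK4 and CDK6, rose by 0.72 ± 0.11 (SE, adjusted p = 0.00229 in limma), a change of 1.64-fold that was positive in 5 of 5 pairs. CCNB2, CCNA2 and CDK2, which act in S phase and mitosis, read -0.94, -0.82 and -0.48 without passing (adjusted p = 0.197, 0.113 and 0.177), and they read lower in 5 of 5 pairs each; the dimmer CDK2 probe sets read -0.04 and 0.01. With the replicate block these 3 and CCNB1 fell (adjusted p = 0.00102, 0.00878, 0.0118 and 0.000769), and with the block as a random effect CCNA2 alone of them passed (adjusted p = 0.0427, against 0.0789 for CCNB2, 0.075 for CDK2 and 0.0914 for CCNB1). The same 4 also passed without negative replicate 2, which had the lowest CCNB2 signal of its fraction, 3.40. The other CDK inhibitors did not pass: CDKN2D read -0.17, CDKN3 -0.19, CDKN2C -0.06 and CDKN2B -0.02, the last at background level. With the poly-A covariate CCND2 read 0.47 ± 0.19 (SE) and with the block beside it 0.19 ± 0.26.

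Ubiquitin ligase subunits and other genes listed for the turnover of CDK inhibitors such as CDKN1A and CDKN1B were also read. Of 9 measured genes 1 rose, 1 fell and 7 did not pass, at a median of -0.12. DDB1 rose by 0.86 ± 0.10 (SE, adjusted p = 0.000506 in limma) and was the only gene of the 88 past the threshold with the poly-A covariate, at 1.21 ± 0.16 (SE, adjusted p = 0.0307). CUL1, the scaffold of the SCF ligase that targets CDKN1B, fell by 0.29 ± 0.07 (SE, adjusted p = 0.0343). The call of CUL1 ended without positive replicate 1, 3 or 5 and without negative replicate 1, 2 or 3, and with the covariate and the block it read 0.02 ± 0.23 (SE). SKP2, the SCF subunit that binds CDKN1B, lay below background on average, at 0.07 against 0.08, and its partner CKS1B read -0.26 and CUL4A -0.12 without passing.

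Of 8 PHLDA and AKT signalling genes 2 rose and 6 did not pass, with a median of 0.14. FOXO1 rose by 0.63 ± 0.10 (SE, adjusted p = 0.00445 in limma) and AKT2 by 0.57 ± 0.11 (SE, adjusted p = 0.0081), both without overlap between the fractions. The second FOXO1 probe set was below background on every array. AKT1 and TSC2 read 0.13 and 0.29 without passing. The call of AKT2 was lost when both arrays of replicate 3 or of replicate 5 were left out, and both calls ended with the poly-A covariate, at 0.56 ± 0.20 for FOXO1 and 0.67 ± 0.20 for AKT2 (SE; adjusted p = 0.271 and 0.212).

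None of the 23 GADD45 family, stress kinase and immediate early genes passed in limma, 3 of the 23 and 23.8% of all genes had p under 0.05 before adjustment, and the median was -0.02. With the replicate block BTG2 rose and GADD45G fell, and with it as a random effect GADD45G alone passed. FOS, DUSP1 and EGR1, which respond within minutes to handling of cells, were bright in both fractions and read -0.06, 0.05 and 0.18. With the poly-A covariate they read 0.25 ± 0.28, 0.51 ± 0.23 and 0.97 ± 0.48 (SE) without passing. They were chosen after their values were seen. MAP3K4, a kinase activated by GADD45 proteins, read -0.28 (adjusted p = 0.16), GADD45GIP1 -0.13 and HSP70.2, listed under its synonym HSPA1A, 0.15.

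**Figure D4:**
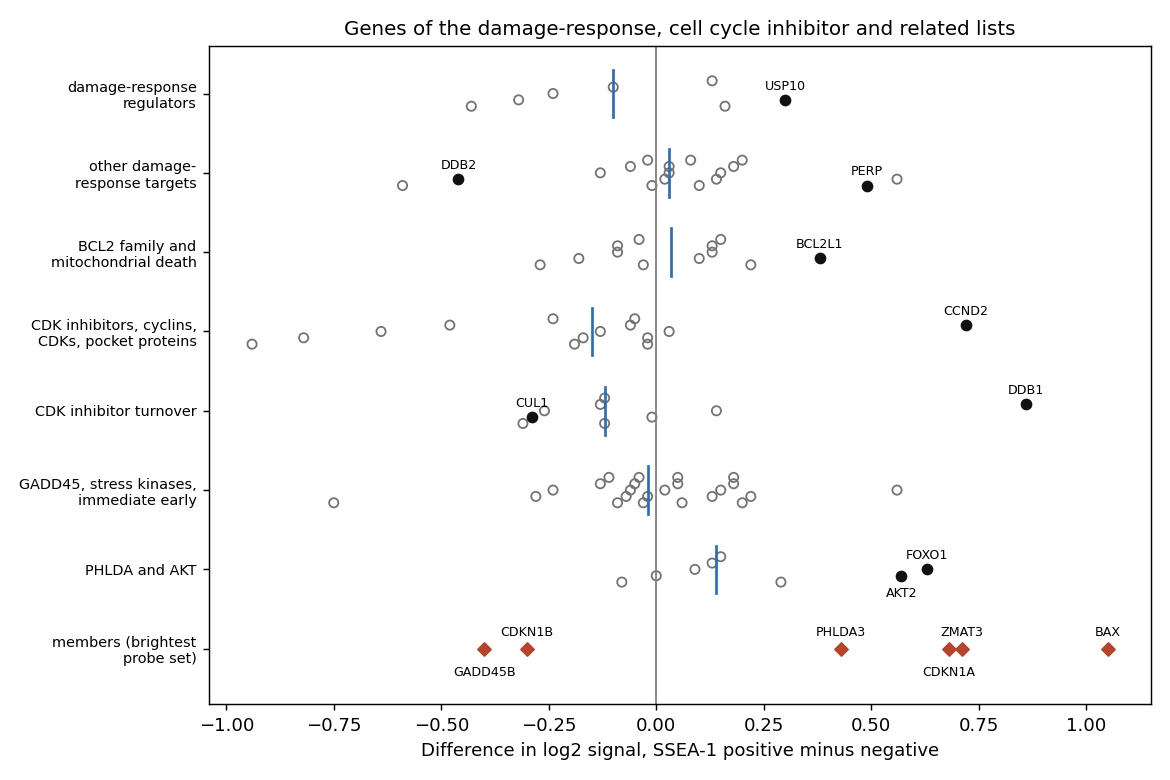
Difference in log2 signal, SSEA-1 positive minus negative (horizontal axis), of the measured genes of 7 lists, each by its brightest probe set; filled points were past an adjusted p of 0.05 in limma and are named, open points were not, blue lines are list medians, and vertical offsets within a row carry no value. The members (red diamonds) stand in the bottom row without a test, from -0.40 for GADD45B to 1.05 for BAX, while the list medians lie between -0.15 and 0.14.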

How the data were processed

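The authors deposited log2 signals, computed with RMA according to the submitters' processing notes. The version and background setting of RMA are not given, and the values of dim probe sets carry the most doubt. They were used without renormalization. Gene symbols came from the platform annotation and were checked by Entrez identifier against a RefSeq table of Sscrofa11.1, used for names alone; 10099 probe sets had 1 symbol, and 9989 of them matched.

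The comparison used limma 3.58.1 in R 4.3.3 (lmFit, eBayes) over all 24123 probe sets, 188 array controls included, with Benjamini-Hochberg adjustment and a threshold of 0.05. A gene was read from its probe set with the highest mean. The members, lists, tests and alternatives were chosen with earlier results of these data known. Named were all members, the 4 genes of each list with the smallest p, MDM2 (not analysed here), DDB1, all measured CDK inhibitor and GADD45 family genes, and the 3 nearest profiles of each member; CCNB1, SKP2, FOS, DUSP1, EGR1 and the cell type markers were added after their values were seen. A further gene of that rule is not reported here. The fit was tested on simulated data.

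Replicate numbers were taken to pair the arrays, because the series text describes replicates that each gave a fraction of both kinds. The correlation between same-numbered arrays, after subtracting the mean of each fraction, was 0.249, 0.653, 0.416, 0.116 and 0.288. Correlations between differently numbered arrays are not given beside these, so the values alone do not show a pairing. The block was an alternative. The poly-A covariate is the mean of 36 poly-A minus that of 27 hybridisation control probe sets.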

Additional observations from a re-analysis of the deposited data

Results flagged for a closer look

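Among 84 groups of 5 arrays examined for a sample far from the others, of which chance marks about 5%, 1 stood out: GADD45G read 2.55 in positive replicate 3, against 3.55 in the next lowest positive array. The same array had the lowest GADD45B signal, 4.80, and the highest poly-A level of the 10, at -2.66. With that level as a covariate GADD45G read 0.34, positive minus negative, and without it -0.75.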

How the results depend on the processing

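The count of 1495 probe sets became 2832 with the replicate block, 2561 with it as a random effect, 13 with the poly-A covariate and 4 with both, and lay between 384 and 1834 in leave-outs. Members past the threshold were 4 in the alternatives other than the covariate (1), covariate with block (0) and leave-outs (3 to 4). The lists gave: damage-response regulators, 1, 2 with either block and 0 with probe set means, the covariate or both (leave-outs 0 to 1). Other damage-response targets gave 2, 3 with the block, 1 with probe set means and 0 with the covariate or both (0 to 2). The BCL2 list gave 1 and 0 with repeated quantile normalization, cyclic loess, probe set means, the covariate or both (0 to 1). CDK inhibitors and cyclins gave 1, 5 with the block, 2 with the random block and 0 with the covariate or both (1 to 5). CDK inhibitor turnover gave 2, 3 with the block, 1 with the covariate and 0 with both (1 to 2). The GADD45 list gave 0, 2 with the block and 1 with the random block (0 to 1). The AKT list gave 2 and 0 with the covariate or both (1 to 3). BCL2L1 turned to -0.12 and CUL1 to 0.02 with the covariate and block. As a fixed effect the block also changed the calls of BTG2, CCNA2, CCNB1, CCNB2, CDK2, GADD45G, KRT19 and THY1 and of no other gene named in the report. The cause was not tested. Signal near background limits BCL2L1, BAK1 and the third CDKN1B probe set. DDB2 and the second CDKN1B probe set were dim but above background on all 10 arrays.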
